A study of Mus musculus with 26 samples.

Results

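The *Peg10*, *Mest* and *Nap1l5* domains are the imprinted regions of mouse chromosome 6 examined here, through 10 of their genes. They were chosen by symbol, as *Peg10*, *Sgce*, *Casd1*, *Ppp1r9a* and *Asb4* of the first domain, *Mest*, *Copg2* and *Klf14* of the second, and *Nap1l5* with its host gene *Herc3* of the third. All 10 were found among the 24409 genes of the expression table, 1285 of which were placed on chromosome 6. Total RNA, depleted of ribosomal RNA, was sequenced from 3 wild-type (WT) and 2 ZFP57 KO libraries of male ES cells on the C57BL/6J background, and ZFP57-bound chromatin from 3 WT and 2 KO libraries of the same kind of cells. The KO is zygotic, a homozygous disruption of the *Zfp57* coding exons for the KRAB domain and the zinc fingers, so that these embryos could still receive ZFP57 from the oocyte. Both groups were derived from morulae that had been cultured to the blastocyst stage, and were grown with LIF and inhibitors of the Erk and Gsk3 pathways for at most 15 passages. The study calls the WT libraries of the binding assay biological replicates and took RNA from the same lines, without saying whether each library number is a line of its own, so the p-values measure the spread between these libraries, part of which may be technical. Expression was deposited as FPKM, fragments counted per unit of transcript length and of library size, and binding as a list of peak positions without scores.

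Genomic imprinting leaves a gene active on the chromosome from the mother or the father only, under a control region whose DNA is methylated in the germ line of either parent. The KRAB zinc finger protein ZFP57 binds the hexanucleotide TGCCGC when its CpG is methylated, recruits KAP1 and H3K9 methylation, and keeps that DNA methylated after fertilization. The control regions of *Peg10*, *Mest* and *Nap1l5* carry their methylation on the maternal copy, and these genes are transcribed from the paternal copy, as is *Sgce*. *Asb4*, *Ppp1r9a*, *Copg2* and *Klf14* are known for transcription from the maternal copy in some tissues.

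As a check of the labels, *Zfp57* itself had 75.94, 72.34 and 70.55 FPKM in WT, against 19.00 and 21.62 FPKM in KO libraries. The table gives no value per exon, so the deleted exons could not be read on their own. The summed FPKM of 8 ES cell markers ran from 677 to 685 in WT and from 733 to 788 in KO libraries. By limma at an adjusted p under 0.05, 4 markers were higher and 1 lower, against 18.8% and 22.3% of all tested genes. The higher ones were *Pou5f1*, *Esrrb*, *Klf4* and *Tfcp2l1*. The lower one was *Dppa3*, itself on chromosome 6, at 24.21, 35.55 and 36.97 FPKM in WT and 9.04 and 4.43 FPKM in KO libraries. Its log2 change of -2.3 (limma adjusted p = 0.0027) was the largest in size of the 8. Of the markers of other cells, the 6 of primitive endoderm summed to between 0.64 and 0.70 in WT and between 0.90 and 1.36 in KO libraries, and the 7 of trophoblast to between 16.3 and 18.4 and between 14.5 and 16.2. Among the former *Sox7* rose (1.82 on the log2 scale, limma adjusted p = 0.0041), and among the latter *Eomes* rose from between 0.38 and 0.60 FPKM to 2.13 and 2.40 FPKM (2.00, adjusted p = 0.0008) while *Tfap2c*, which made up most of the sum, fell (-0.44, adjusted p = 0.012). The other tested markers of both lists were not called. The 7 fibroblast markers, for feeder cells, summed to at most 0.36 in any library, with *Col3a1*, *Dcn* and *Lum* at 0. The part of these markers in the changes below was not tested, and in bulk RNA fewer cells of a type and less RNA per cell cannot be told apart.

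A ZFP57 peak overlapped each of *Peg10*, *Mest* and *Nap1l5*. No coordinates of the control regions were used, and the 3 control regions named below are the places of these peaks. Of the 10 genes, 6 lay within 20 kb of a ZFP57 peak of the C57BL/6J list, namely *Peg10*, *Sgce*, *Mest*, *Copg2*, *Nap1l5* and *Herc3*, and they shared 3 distinct peaks. All 3 peaks were also in the shorter list named for hybrid ES cells, which held 743 of the 1423 peaks (52.2%) and 36 of the 72 on chromosome 6. All its intervals are intervals of the C57BL/6J list, and the sources used here tie it to no ZFP57 library of those cells, so it is no independent measurement. The 4 other genes were farther from a peak, with *Ppp1r9a* 50.9 kb, *Asb4* 55.4 kb, *Casd1* 104.3 kb and *Klf14* 217.1 kb away. The nearest peaks of *Ppp1r9a*, at chr6:5216534-5216842 within *Pon3*, and of *Asb4*, at chr6:5327172-5328012, were absent from the hybrid list.

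The *Peg10* peak, chr6:4747695-4748129 on GRCm38 (mm10), spanned 435 bp in an intron of *Peg10* and touched no exon. Its middle lay 606 bp downstream of the *Peg10* start. *Peg10* and *Sgce* are transcribed away from each other from starts 102 bp apart. The peak held a single TGCCGC, as did the median peak, and 36 CpG. The ratio of observed to expected CpG was 1.25, higher than in 99.6% of the 1423 peaks, whose median was 0.58. A stretch of 300 bp from the middle of this peak is shown on the plus strand because it holds the only copy of the hexanucleotide, in capitals (GCGGCA in capitals, in the sequences further on, is the same hexanucleotide on the minus strand).
Peg10 chr6:4747776-4748075: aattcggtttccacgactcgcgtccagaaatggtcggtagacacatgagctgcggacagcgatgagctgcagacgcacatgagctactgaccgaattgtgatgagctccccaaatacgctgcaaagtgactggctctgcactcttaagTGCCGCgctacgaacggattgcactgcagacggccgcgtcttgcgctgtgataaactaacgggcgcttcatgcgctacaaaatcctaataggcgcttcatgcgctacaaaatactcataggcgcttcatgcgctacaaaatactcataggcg
The end of this stretch runs into a tandem repeat. The longest word with at least 5 copies in the peak, GGCGCTTCATGCGCTACAAAAT of 22 bp, was looked for after the sequence had been read. With both strands read, it occurred in 1 of the 1423 peaks, that of *Peg10*, where the choice of the word had fixed its presence.

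The *Mest* peak, chr6:30737388-30738881, was 1494 bp wide, wider than 99.5% of the peaks, against a median of 291 bp. It covered 2 of the 3 curated starts of *Mest*, and 286 bp of it fell in exons. TGCCGC occurred 12 times in it, 7 times on the plus strand and 5 times on the minus strand, more often than in 99.8% of peaks. Per length this was 8.03 copies per kb, against a median of 3.8, with 2.3 in the *Peg10* peak and 9.22 in the *Nap1l5* peak. The peak held 91 CpG, at a ratio of observed to expected of 0.76. The first stretch shown lies inside *Mest*, downstream of its first curated start and upstream of the exon with the covered starts, and holds 3 of the copies, 2 on the plus and 1 on the minus strand, and the short ones are the sites within that exon, 1 of them with adjoining copies.
Mest chr6:30737414-30737713: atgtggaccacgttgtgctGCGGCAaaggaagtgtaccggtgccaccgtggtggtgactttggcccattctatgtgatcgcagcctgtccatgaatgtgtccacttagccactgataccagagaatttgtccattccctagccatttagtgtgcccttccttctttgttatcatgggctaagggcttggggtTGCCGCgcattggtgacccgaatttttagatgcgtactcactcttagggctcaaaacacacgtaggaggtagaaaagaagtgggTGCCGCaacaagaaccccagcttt
Mest chr6:30738096-30738125: cagctttcctctGCGGCAgccgcacctcgc
Mest chr6:30738165-30738194: tgctgcctctgcTGCCGCTGCCGCgggccg
Mest chr6:30738277-30738306: atcctgcggcggGCGGCAtgggataatgcg
The *Copg2* gene ended 8.7 kb from this peak, and the start of *Copg2* was 158660 bp away from its middle.

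The *Nap1l5* peak, chr6:58906932-58907148, was 217 bp wide, narrower than the median peak, and covered the start of *Nap1l5* with 195 bp in its exon. *Nap1l5* has no intron and lies on the minus strand inside an intron of *Herc3*, which is transcribed from the plus strand and starts 73340 bp upstream of the peak's middle at the nearest curated start. The peak held TGCCGC once on each strand, 20 CpG at a ratio of 0.88 and a GC content of 65.4%. Extended by 100 bp on each side, it held 5 copies. Both sites within the peak are shown.
Nap1l5 chr6:58906985-58907014: gctgggcttgttTGCCGCagtggtctggtg
Nap1l5 chr6:58907082-58907111: gcgtctgaagatGCGGCAaacgctgacggc
All 3 peaks held the hexanucleotide, as did 1309 of all 1423 peaks (92%). Equally wide windows shifted by 2000 bp towards lower coordinates held 0 copies at each of the 3 control regions. Over all peaks such windows held it in 79 cases (5.55%). The shift ignored the strand, so for *Nap1l5* on the minus strand the window lay downstream. The peaks of *Peg10* and *Nap1l5* had no soft-masked repeat sequence and that of *Mest* 3.3%, while the median peak was 72% soft-masked.

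**Figure D1:**
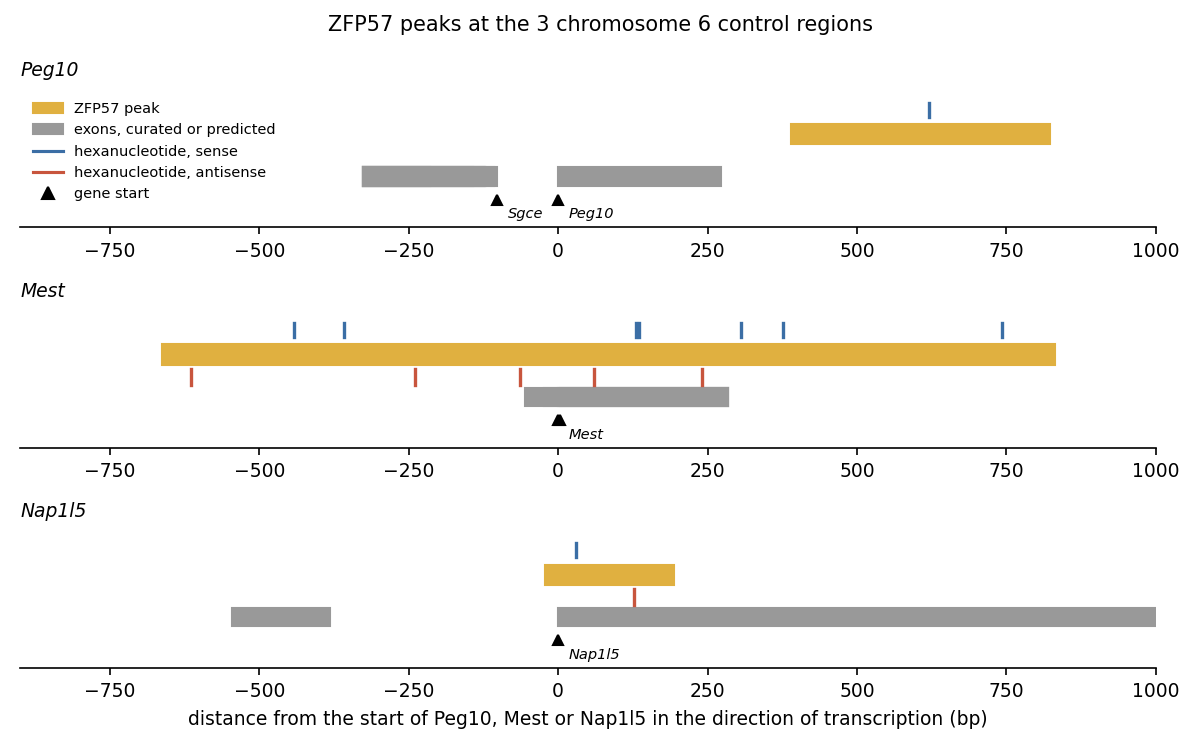
The ZFP57 peaks (yellow) at the *Peg10*, *Mest* and *Nap1l5* control regions, with the x axis in bp from the gene's start in the direction of transcription, exons in grey, gene starts as triangles, and the hexanucleotide TGCCGC as ticks above (sense) or below (antisense) the peak. The *Mest* and *Nap1l5* peaks cover a start and carry 12 and 2 copies, and the *Peg10* peak lies behind the first exon and carries 1.

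RefSeq promoters, taken as 250 bases before to 50 after a start and read on both strands, held TGCCGC in 3813 of 32851 cases (11.6%), and 22 of them (0.067%) overlapped a ZFP57 peak. The members' own entries were 2 of 3 for *Mest* and the single entry for *Nap1l5* with both the hexanucleotide and a peak. *Copg2* had it in its single entry and *Casd1* in 1 of 2, with no peak over either. It was not found in these windows of *Ppp1r9a*, *Asb4* and *Herc3*. *Peg10*, *Sgce* and *Klf14* were not analysed for promoters.

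In FPKM, a level per length, the 10 genes of the WT libraries ran from *Copg2* with a mean of 10.3 to *Klf14* with 0.0167. *Copg2* (9.76 to 10.85) and *Mest* (9.27 to 9.99) overlapped at the top, followed by *Herc3* (2.97 to 3.57) and *Peg10* (2.55 to 3.37), which overlapped too. *Casd1* and *Ppp1r9a* followed without overlap with their neighbours. *Sgce*, *Nap1l5* and *Asb4* were near the lower end at means of 0.233, 0.137 and 0.107 FPKM, with *Nap1l5* overlapping both of the others in range. In the KO libraries *Mest* stood first with a mean of 16.6 FPKM, above *Copg2* with 10.1, and *Peg10* with 8.11 had passed *Herc3* with 3.51, with no overlap between these neighbours.

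**Figure D2:**
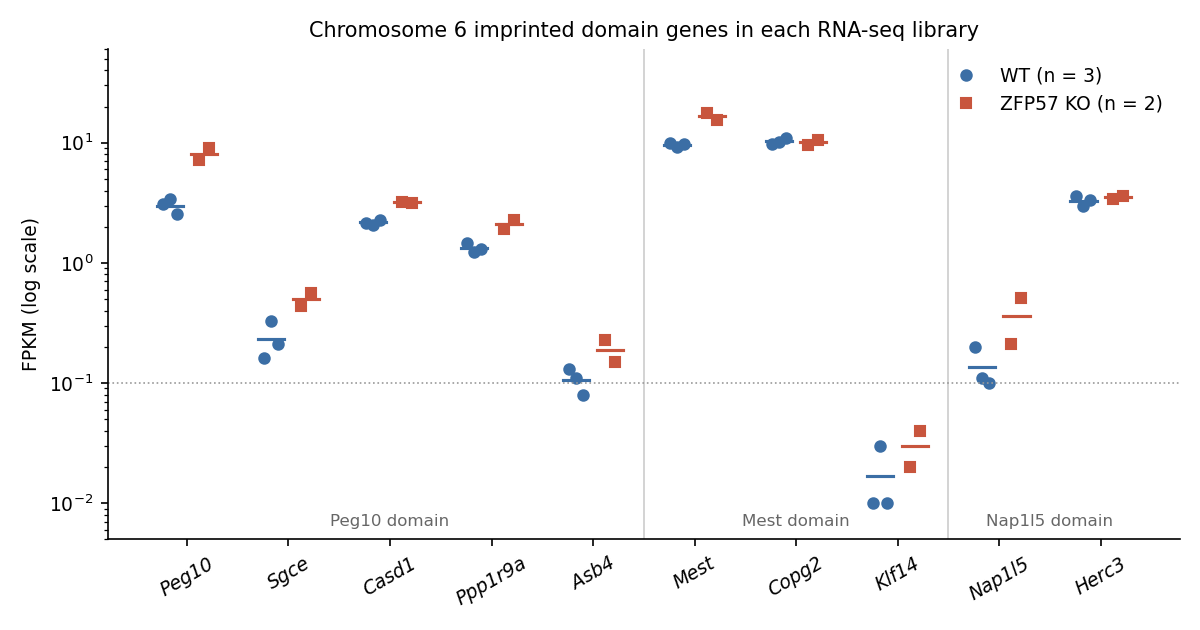
FPKM on a log scale of the 10 genes in each of the 3 WT (blue circles) and 2 ZFP57 KO (red squares) libraries, with horizontal bars for the group means and a dotted line at 0.1 FPKM, the mean needed for a test. Both KO points lie above all WT points for 7 genes, among them *Peg10* (7.18 and 9.04 against 2.55 to 3.37) and *Mest* (17.79 and 15.51 against 9.27 to 9.99).

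*Peg10*, *Sgce*, *Casd1*, *Ppp1r9a* and *Mest* rose in ZFP57 KO ES cells, and none of the 9 genes that could be tested fell. The test was limma on log2(FPKM + 0.1), run over 14612 genes that averaged 0.1 FPKM or more, and a call means a Benjamini-Hochberg adjusted p under 0.05. It could be run on 9 of the 10, all but *Klf14*, and these 9 averaged at least 0.1 FPKM in WT alone. The 5 calls among them stand beside calls for 41.1% of all tested genes, 18.8% higher and 22.3% lower. Of the tested genes of chromosome 6, 50.1% were called, 37.4% higher and 12.7% lower. *Peg10* alone was called with a log2 change of at least 1 in size, as were 8.02% of all tested genes. Both KO libraries lay above all WT libraries for 7 of the 10 genes and below them for 0, against 30.3% and 33.1% of all tested genes. The median log2 change of the 9 was 0.61, against -0.013 over all tested genes.

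The *Peg10* gene, derived from a retrotransposon and needed for the placenta, had the largest change of the 9 tested. The WT libraries gave 3.07, 3.37 and 2.55 FPKM, and the KO libraries 7.18 and 9.04 FPKM. The KO values were all more than the highest WT value, at means of 3.0 ± 0.415 (SD, n = 3) and 8.11 ± 1.32 (SD, n = 2), a ratio of 2.71. The log2 change was 1.41 (SE 0.15, 95% interval 1.05 to 1.76, limma adjusted p = 0.0011), higher than that of 97.2% of the other tested genes of chromosome 6. It rests on 864 to 3322 estimated fragments a library, and the call held in each of the 13 alternatives, with changes of 1.19 to 1.57.

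*Sgce*, which encodes epsilon-sarcoglycan and starts next to *Peg10*, was lowly expressed, at 0.16, 0.33 and 0.21 FPKM in WT and 0.44 and 0.56 FPKM in KO libraries. The groups did not overlap, with 17 to 58 estimated fragments a library. Its log2 change of 0.87 (SE 0.26) passed with an adjusted p of 0.038 by limma. With a pseudocount of 1 the change was 0.28 and still called (adjusted p = 0.029, limma). The call was lost without WT library 1, WT library 3, KO library 1 or KO library 2, with changes of 0.71, 0.84, 1.02 and 0.73 and adjusted p of 0.092, 0.10, 0.08 and 0.17 by limma, and with no filter on low values (0.87, adjusted p = 0.063).

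*Casd1*, for an enzyme that adds acetyl groups to sialic acid, was at 2.16, 2.07 and 2.29 FPKM in WT and at 3.21 and 3.17 FPKM in KO libraries. Its libraries were close together within each group, and its log2 change was 0.53 (SE 0.08, limma adjusted p = 0.0043), called in all 13 alternatives. *Ppp1r9a*, for neurabin, an actin-binding regulator of protein phosphatase 1, was at 1.46, 1.24 and 1.30 FPKM in WT and at 1.92 and 2.27 FPKM in KO libraries. Both KO values were higher than all WT values, with a log2 change of 0.61 (SE 0.12, limma adjusted p = 0.011). Without KO library 2 its adjusted p by limma was 0.065. *Asb4*, for an ankyrin repeat protein with a SOCS box, was at 0.13, 0.11 and 0.08 FPKM in WT and at 0.23 and 0.15 FPKM in KO libraries, on 14 to 42 estimated fragments. The KO values were the highest, but the log2 change of 0.48 had an interval from -0.09 to 1.06 and was not called (limma adjusted p = 0.15). It was called after quantile normalization, with 0.75 (adjusted p = 0.046, limma). Without KO library 1 it was 0.28 (adjusted p = 0.44, limma), and with a pseudocount of 1 it was 0.10 (adjusted p = 0.17, limma).

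The *Mest* gene, for a protein with an alpha/beta hydrolase fold, was at 9.99, 9.27 and 9.72 FPKM in WT and at 17.79 and 15.51 FPKM in KO libraries. The groups were far apart beside their spread, at means of 9.66 and 16.6 FPKM. The log2 change was 0.78 (SE 0.07, 95% interval 0.60 to 0.95, limma adjusted p = 0.00075), and the call held in each of the 13 alternatives. *Copg2*, for a subunit of the COPI vesicle coat, was at 9.76, 10.21 and 10.85 FPKM in WT and at 9.65 and 10.46 FPKM in KO libraries. The groups overlapped, and the log2 change was -0.03 with an interval from -0.19 to 0.13 (limma adjusted p = 0.74). *Mest* and *Copg2* run towards each other and overlap by 913 bp in their last exons. Which strand setting was used in counting is not stated, so reads from there may be shared between them. *Klf14*, for a transcription factor of the Krüppel-like family, was at 0.01, 0.03 and 0.01 FPKM in WT and at 0.02 and 0.04 FPKM in KO libraries. These values stand for 2 to 6 estimated fragments a library and overlapped between the groups (exact permutation test, two-sided, p = 0.3, n = 3 and 2, smallest possible 0.1). A change of *Klf14* was thus neither shown nor excluded.

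*Nap1l5*, a gene of the nucleosome assembly protein family, was at 0.20, 0.11 and 0.10 FPKM in WT and at 0.21 and 0.51 FPKM in KO libraries, on 10 to 53 estimated fragments. The first KO library was just above the highest WT library, and the second was well above it. All of *Nap1l5* lies in the *Herc3* intron, and with the strand setting of the counting not stated, its few fragments may be shared with *Herc3* transcripts, for the level and for the ratio given further on. The log2 change of 0.90 (SE 0.35) missed the threshold with an adjusted p of 0.085 by limma. Without KO library 1 it was 1.39 and was called (adjusted p = 0.032, limma), a fit in which KO library 2 stands alone and is assumed to vary like the WT libraries, as in every fit without a KO library. In the full set, quantile normalization gave 1.13 (adjusted p = 0.039, limma). Without KO library 2 it was 0.41 (adjusted p = 0.38, limma), and with a pseudocount of 1 it was 0.25 (adjusted p = 0.095, limma). *Herc3*, for a ubiquitin ligase of the HERC family, was at 3.57, 2.97 and 3.35 FPKM in WT and at 3.40 and 3.62 FPKM in KO libraries. The groups overlapped, and the log2 change was 0.09 with an interval from -0.15 to 0.33 (limma adjusted p = 0.49).

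The changes were then set against chromosome 6 as a whole. With the members left out, the median log2 change of 670 tested genes of chromosome 6 was 0.167, against -0.018 for 13882 genes of the other chromosomes, and 66.9% against 47.5% of genes were higher in KO libraries. Chromosome 6 had the highest median of the 20 chromosomes, followed by chromosome 15 with 0.048, but the largest shift in size was that of chromosome 11, at -0.471 over 1224 genes, which are among the other chromosomes and among all tested genes in the shares given here. Against the WT mean, the median was 0.135 in KO library 1 and 0.218 in KO library 2. Each WT library against the others gave between -0.028 and 0.030. The median log2 level of chromosome 6 genes minus that of the other genes, taken within each library and so another quantity than the median of changes, was 0.159 higher in KO libraries (exact permutation test over libraries, two-sided, p = 0.1, n = 3 and 2, the smallest possible value). The chromosome 6 median was 0.09 with no filter on low values. The median within 5 Mb of the genes was 0.196 around *Peg10* (16 genes), 0.174 around *Mest* (60 genes) and 0.246 around *Nap1l5* (27 genes).

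**Figure D3:**
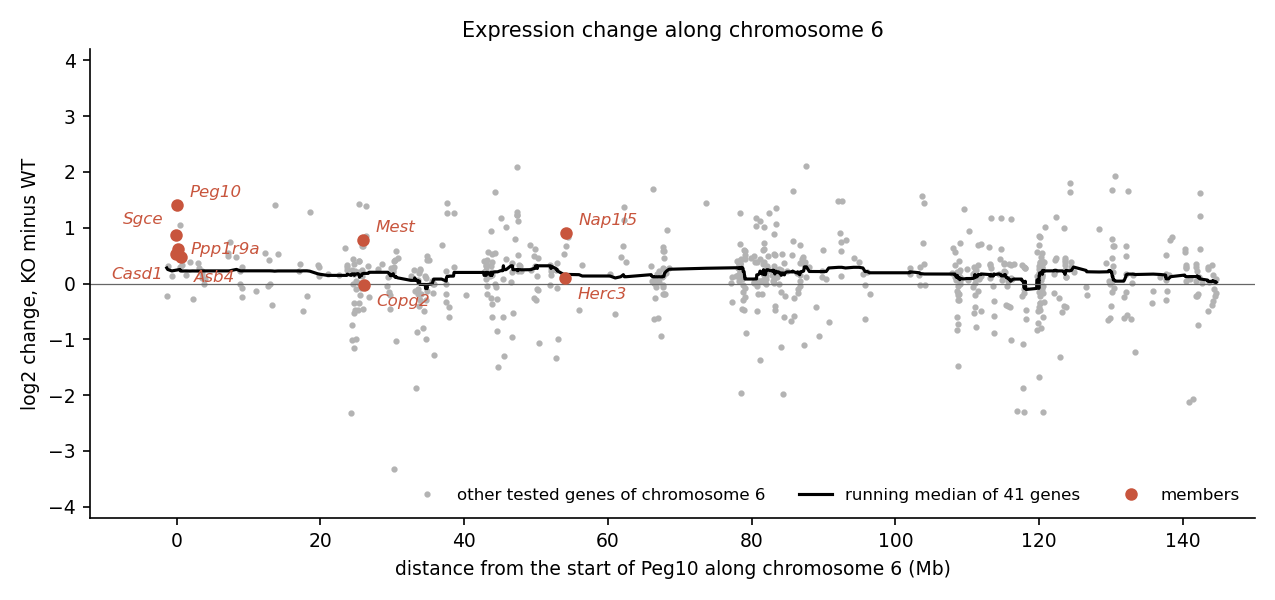
Log2 change (KO minus WT) of each tested gene of chromosome 6 against its distance from the start of *Peg10* in Mb, with a running median of 41 genes as a black line and the tested members in red. The running median stays above 0 over most of the chromosome, whose median is 0.167, and *Peg10* (1.41), *Nap1l5* (0.90), *Sgce* (0.87) and *Mest* (0.78) lie well above it.

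After the median of its chromosome had been subtracted from each gene in each library, *Peg10*, *Mest*, *Ppp1r9a* and *Casd1* were still higher in KO cells, and *Copg2* was lower. The same limma test then called 38.6% of all placed genes, 16.2% higher and 22.4% lower, and 40.2% of those on chromosome 6, 19.6% higher and 20.6% lower. The change left for *Peg10* was 1.23 (SE 0.14, limma adjusted p = 0.0018) and for *Mest* 0.60 (limma adjusted p = 0.0086), and both were called in all 13 alternatives. *Ppp1r9a* was left with 0.43 (limma adjusted p = 0.019) and *Casd1* with 0.36 (0.028), but *Casd1* lost its call without WT library 1, 2 or 3 or KO library 1, and *Ppp1r9a* without WT library 2 or 3 or KO library 1 or 2. The values without these libraries were 0.25 to 0.38 for *Casd1* and 0.41 to 0.45 for *Ppp1r9a*. *Copg2* at -0.21 had a limma adjusted p of 0.042, and was not called without WT library 2 or 3 or KO library 1 or 2 (-0.25 to -0.17), nor with a pseudocount of 1 (-0.17), no filter on low values (-0.14) or a variance model without trend (-0.21). *Sgce* with 0.69 (limma adjusted p = 0.083), *Nap1l5* with 0.72 (0.12), *Asb4* with 0.30 (0.39) and *Herc3* with -0.09 (0.45) were not called. *Asb4* was at 0.01 without KO library 1 and at 0.60 without KO library 2. *Nap1l5* was called without KO library 1 with 1.12, from KO library 2 alone, but not without KO library 2 (0.33) or at a pseudocount of 1 (0.11). *Sgce* was called without WT library 2 with 0.91, but not without WT library 1 (0.52) or at a pseudocount of 1 (0.14).

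**Figure D4:**
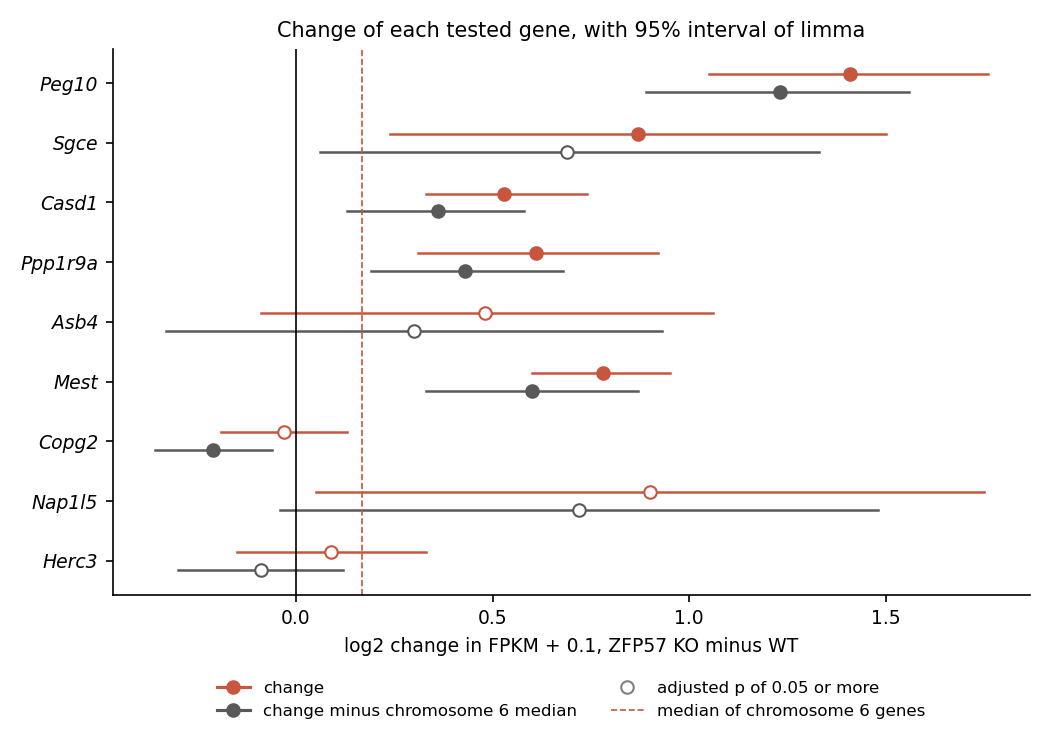
Log2 change in FPKM + 0.1 (KO minus WT) of the 9 tested genes with the 95% interval of limma, as measured (red) and after subtraction of the chromosome 6 median (grey), filled where the adjusted p is under 0.05, with the chromosome 6 median of 0.167 as a dashed line. *Peg10* falls from 1.41 to 1.23 and *Mest* from 0.78 to 0.60, both still filled, while *Sgce* becomes open and *Copg2*, at -0.21, becomes filled.

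In a ratio of genes within a library the scaling of that library and of the chromosome cancels, apart from the pseudocount. The log2 ratio of *Mest* to *Copg2* was 0.03, -0.14 and -0.16 in WT and 0.88 and 0.56 in KO libraries. Both genes were thus near equal in WT cells and *Mest* was above in both KO libraries, by 0.81 more (exact permutation test, two-sided, p = 0.1, n = 3 and 2, the smallest possible). *Nap1l5* to *Herc3* was -3.61, -3.87 and -4.11 in WT and -3.50 and -2.61 in KO libraries, a difference of 0.81 (exact permutation test, p = 0.1, n = 3 and 2). The groups did not overlap, but KO library 1 was close to WT library 1. This difference was 1.26 without KO library 1, 0.37 without KO library 2 and 0.18 with a pseudocount of 1. *Peg10* to *Sgce* was 3.61, 3.01 and 3.10 in WT and 3.75 and 3.79 in KO libraries, a difference of 0.53 (exact permutation test, p = 0.2, n = 3 and 2). The groups did not overlap, and with these numbers of libraries the test cannot pass the threshold. The difference was 0.32 with a pseudocount of 0.01 and 0.90 with 1 (exact p = 0.4 and 0.1).

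Around the control regions, 26 other genes of the table lay within 500 kb of *Peg10*, *Mest* or *Nap1l5*, and 14 of them could be tested. Of these 6 rose and 1 fell, 42.9% and 7.14% of the 14, against 37.4% and 12.7% of the tested genes of chromosome 6 and 18.8% and 22.3% of all tested genes, with a median log2 change of 0.41. With any single library left out, 2 to 4 of them were called. The *Peg10* window held 1 tested neighbour, which was not called. Just outside it, 504.1 kb from *Peg10* and nearer than *Asb4*, *Pon2* had 0.15, 0.26 and 0.24 FPKM in WT and 0.55 FPKM in both KO libraries. Its log2 change, looked up after the values were seen, was 1.06 (limma adjusted p = 0.011), and 0.88 minus the chromosome median (adjusted p = 0.026, limma). In windows of 250 and 1000 kb, 4 and 10 neighbours were called. In the *Mest* window of 10 tested genes, *Lincpint*, a long noncoding RNA gene, changed by 0.85 (limma adjusted p = 0.030), *Tmem209* by 0.24 (0.032) and *Klhdc10* by 0.18 (0.036). *Cep41*, for a centrosomal protein, was 23.0 kb from *Mest*, at 1.66, 1.97 and 2.02 FPKM in WT and 1.30 and 1.40 FPKM in KO libraries. It was the only neighbour that fell, by 0.45 on the log2 scale (limma adjusted p = 0.028). *Mir335*, which lies in *Mest*, falls outside the naming rule and was picked after its values were seen. It was at 5.73, 2.94 and 3.41 FPKM in WT and at 4.88 and 7.95 FPKM in KO libraries, which overlapped (0.68, limma adjusted p = 0.14).

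All 3 tested neighbours of *Nap1l5* rose. *Tigd2*, a gene of the tigger transposable element family, was at 3.71, 3.68 and 3.78 FPKM in WT and at 6.34 and 7.19 FPKM in KO libraries. Its libraries were far apart between the groups, with a log2 change of 0.84 (SE 0.07, limma adjusted p = 0.0007). A ZFP57 peak at chr6:59241058-59241333, also in the hybrid list, lay 29025 bp from it. The transporter gene *Abcg2* changed by 0.53 (limma adjusted p = 0.0018), 212.8 kb from *Nap1l5*, and *Fam13a*, 26.4 kb away, by 0.67 (0.034). With chromosome medians subtracted, 3 of the 14 neighbours were higher and 3 lower, 21.4% each, near the 19.6% and 20.6% of all tested chromosome 6 genes. Those higher were *Tigd2* (0.66), *Abcg2* (0.35) and *Lincpint* (0.67), and those lower *Cep41* (-0.63), *Ube2h* (-0.39) and *Zc3hc1* (-0.26).

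**Figure D5:**
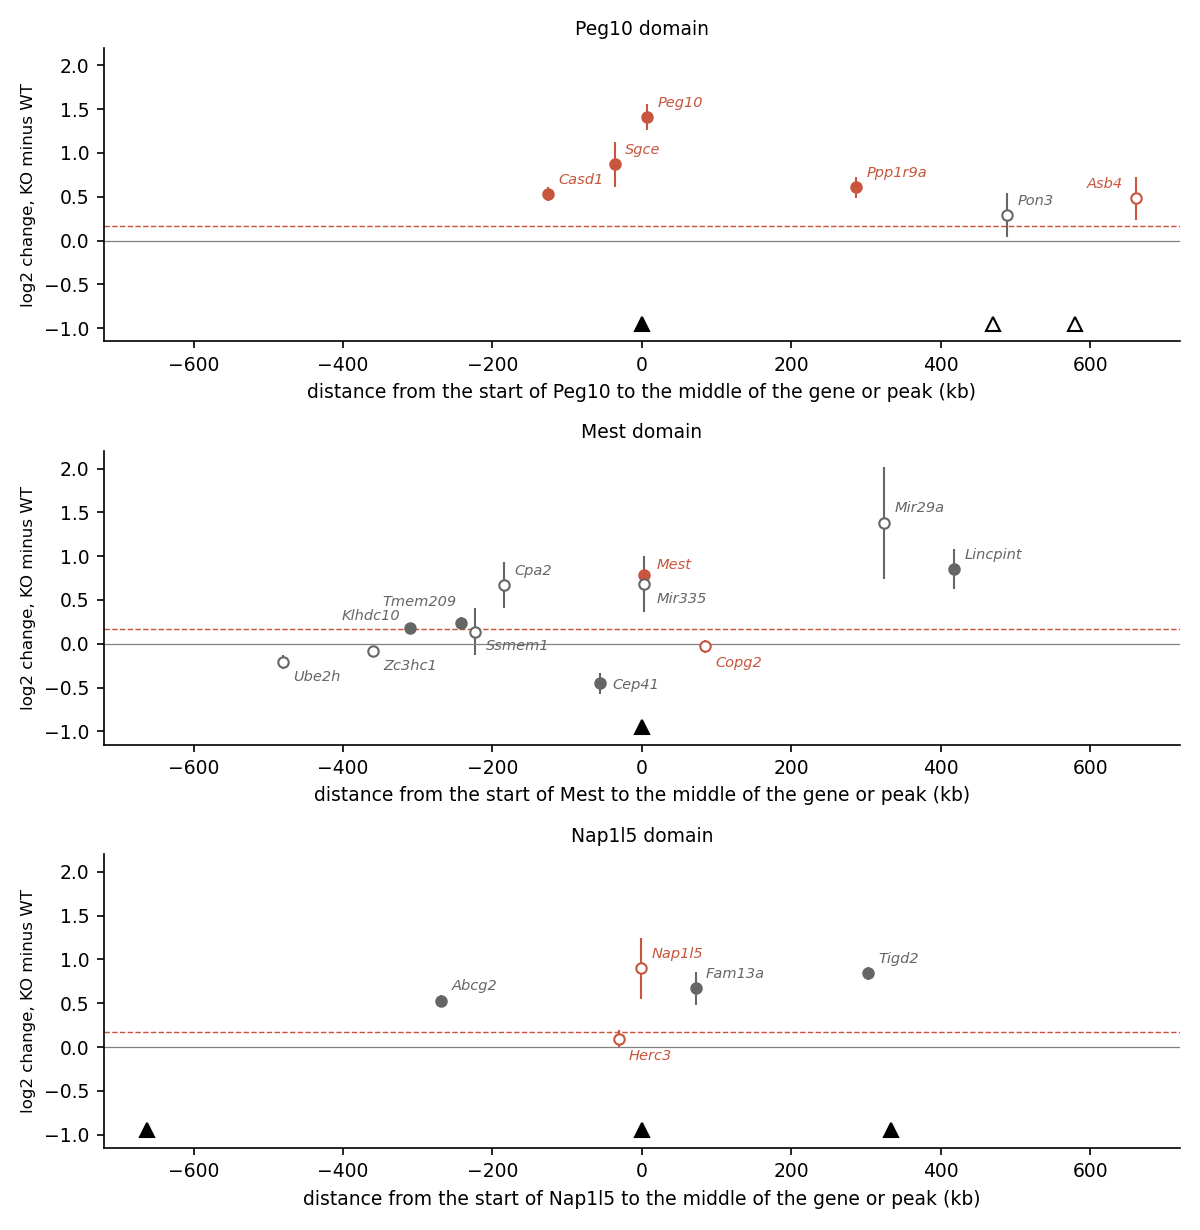
Log2 change (KO minus WT, bars for the standard error) of members (red) and other tested genes (grey) against the distance in kb from the start of *Peg10*, *Mest* or *Nap1l5*, filled where the adjusted p is under 0.05, with ZFP57 peaks as triangles (filled where also in the hybrid list) and the chromosome 6 median of 0.167 as a dashed line. *Peg10* at 1.41 and *Mest* at 0.78 sit next to a peak. *Copg2* at -0.03 and *Herc3* at 0.09, also within 20 kb of a peak, lie near 0. *Casd1* and *Ppp1r9a*, both filled, are 104.3 and 50.9 kb from the nearest peak.

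The genes most like *Peg10* over the 5 libraries were *Mb21d2* and *Tnrc18*, with distances of 0.22 and 0.25 among 3959 genes of a WT mean within 2-fold. The distance is Euclidean, over log2(FPKM + 0.1) minus the WT mean. *Mb21d2* was at 1.80, 2.07 and 1.65 FPKM in WT and at 4.93 and 5.09 FPKM in KO libraries. *Marc2* (0.10) and *Dnase2a* (0.13) were nearest to *Mest* among 4257 genes, and *4930579K19Rik* (0.26) and *Tgm3* (0.33) nearest to *Nap1l5* among 1514. Of these, those with a position lie on other chromosomes.

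The change of *Peg10* and that of *Mest* were also set beside 15 host genes of maternally methylated control regions on other chromosomes. These were *Peg3*, *Snrpn*, *Snurf*, *Plagl1*, *Nnat*, *Zrsr1*, *Inpp5f*, *Airn*, *Kcnq1ot1*, *Peg13*, *Nespas*, *Gnas*, *Igf2r*, *Grb10* and *Cdh15*. They were not sorted by the parental copy transcribed, and some, such as *Igf2r* and *Airn*, belong to one domain. The counts are therefore no like-for-like comparison with *Peg10* and *Mest*. Of 14 that could be tested, 6 rose and 4 fell by limma (42.9% and 28.6%, against 18.8% and 22.3% of all tested genes), with log2 changes from -1.19 to 0.75 and a median of 0.36. None of the 14 exceeded the change of *Mest* or *Peg10*. With chromosome medians subtracted the highest was 0.92, so that 6 of the 14 exceeded *Mest* with 0.60 and 0 exceeded *Peg10* with 1.23. These orders were not tested.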

How the data were processed

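The authors deposited gene expression as FPKM, rounded to 2 decimals, for 3 WT and 2 KO RNA libraries (ScriptSeq v2, paired reads of 150 bp). The authors deposited ZFP57 peaks as positions in mm10, without score, for peaks found in at least 2 WT replicates. The submitters' processing notes name FastQC 0.11.5, Trim Galore 0.2.7, BWA 0.6.2, Picard, MACS2 2.1.0 and STAR 2.5.2. The counting, its strand setting, the annotation and the making of the hybrid list are not given in the sources used here.

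Positions on GRCm38 came from RefSeq, by symbol for 23189 of 24409 genes and by synonym for 1095, and were lacking or ambiguous for 112 and 13. After a filter (mean FPKM of 0.1 or more over the libraries), log2(FPKM + 0.1) was fitted with limma 3.58.1 in R 4.3.3 (eBayes with trend, Benjamini-Hochberg adjustment, 95% intervals). Fold changes of low genes are understated on this scale. The steps between low FPKM values put 1 fragment on 1 kb at 0.0170 to 0.0197 FPKM, with 90.8 to 95.0% of such values whole within 0.1 fragment (20% by chance), which implies 50800000 to 58800000 fragments a library. Estimated fragments are FPKM times curated exonic length over this step. The depth of the ChIP-seq is unknown. Exact permutation tests ran over all 10 assignments of the group labels. The script was tested on simulated data.

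Named by rule besides the members were *Zfp57*, neighbours within 500 kb of *Peg10*, *Mest* or *Nap1l5* that passed the test, and for each of these 3 the 2 genes nearest in profile. Outside this rule, the host genes, *Pon3* for the place of a peak, and the cell type markers that were called or at 0 were named too. *Pon2* and *Mir335* were added after their values had been seen. Members and gene lists were chosen with earlier results of these data known. Alternatives covered pseudocounts of 0.01 and 1, filters, scaling, the variance model, a replicate block, single libraries and windows. KAP1 and H3K9me3 libraries and the hybrid lines' own libraries were not used here.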

Additional observations from a re-analysis of the deposited data

How the results depend on the processing

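The count of 5 members called was 3 with the replicate block, 1 with a log2 change of at least 1 in size required (*Peg10*), 7 with quantile normalization, and 3 to 5 with single libraries left out. With chromosome medians subtracted, 5 became 6 with quantile normalization, 2 with the replicate block and 2 to 4 with single libraries left out. The 7 neighbours called became 2 with the replicate block, 4 in a window of 250 kb and 2 to 4 with single libraries left out. The cause was not tested. The change of *Copg2* turned to 0.01 with the block and to between -0.09 and 0.03 with single libraries left out, and that of *Asb4* minus chromosome 6 to -0.04 at a pseudocount of 1. Of the 114 alternative values of single members, 100 kept direction and side of the threshold, 8 lost and 3 gained a call, and 3 reversed. After subtraction of chromosome medians, 92 of 114 kept both, 18 lost and 3 gained a call, and 1 reversed. The median change of chromosome 6 ran from 0.09 to 0.22.

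The replicate numbers shared by WT and KO libraries were not taken as pairs, since no source says whether they are and only 2 are shared. Deviations of same-numbered libraries correlated at -0.068 and -0.036. With 2 KO libraries, the other KO library gives the same values with the sign turned (0.068 and 0.036), so this cannot decide about pairing. With the block as a term *Sgce* and *Ppp1r9a* changed by 0.84 and 0.60 but were not called (limma adjusted p = 0.088 and 0.081), nor were, minus chromosome 6, *Casd1*, *Ppp1r9a* and *Copg2* with changes of 0.38, 0.41 and -0.18 (adjusted p = 0.11, 0.13 and 0.21). With 3 and 2 libraries, the smallest exact p is 0.1. *Sgce*, *Asb4*, *Klf14* and *Nap1l5* rest on at most 58 estimated fragments a library, and the part of depth in their results was not tested.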
